A study of Mus musculus with 2 samples.

Results

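Mitochondrial ribosomal protein genes were followed across the epithelium and the fibers of the embryonic mouse lens at stage E12.5. The members were all genes whose platform symbol begins with Mrpl or Mrps followed by a digit. There were 76 of them, 48 named for the large and 28 for the small ribosomal subunit, among 19057 genes with a named probe. They were read by 132 of the 45281 probes on the array. The series holds 1 Illumina array per tissue. Both RNAs came from wild-type E12.5 mice, and no allele, transgene or treatment is named for either. The mouse strain, the number of embryos behind each RNA and the way the tissues were parted are not stated in the labels. With 1 array per group there is no replicate, so no p-value, standard error or SD was computed and each ratio describes this pair of arrays.

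Mitochondria carry a small genome of their own and translate its messages, all of them for subunits of the respiratory chain and the ATP synthase, on a dedicated ribosome. The rRNAs of that ribosome are encoded in the mitochondrial genome, whereas all of its proteins are encoded in the nucleus, made in the cytosol and imported. Some of these proteins have counterparts in bacterial ribosomes and others are particular to mitochondria. Maturing lens fibers later lose their mitochondria and other organelles, and the epithelium keeps them through life.

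Intensities are given after quantile normalization, which sets both arrays to 1 distribution. A gene stands for its brightest probe. The floor, below which a value is not read as signal, was 44.5 for epithelium and 32 for fibers, the 95th percentile of 1580 probes for genes of families taken to be silent in lens. A gene above both floors has a ratio of fibers over epithelium, given on the log2 scale. A gene above 1 floor has a bound, the bright intensity divided by the floor that the dim one failed to reach, and its fold is written "at least". Where the bound would lie under 1-fold the gene has no direction and enters a median as 0. Intensities of different genes come from different probes and are not set against each other.

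Both arrays carried the markers of their labels. All 7 lens fiber markers were at least 2-fold higher in fibers, among them Mip at 3206.5 in epithelium and 19878 in fibers. Of 5 lens epithelium markers, Gja1, Cdh1, Pdgfra and Pax6 were at least 2-fold higher in epithelium, and Foxe3 was below both floors. Markers of retina were below both floors for all 4 genes on the array. The summed intensity of 7 periocular mesenchyme markers was 260.5 in epithelium and 64 in fibers. Of them Tfap2b alone passed a floor, at 208.5 and 36. Of the other markers of endothelium, blood cells and pigment cells, Tek (7 and 83.5) and Hba-a1 (15 and 76.5) passed in fibers alone, and Pmel (56 and 11) in epithelium alone. Hbb-y (121.5 and 124) and Mitf (64 and 76.5) passed both floors. The macrophage markers Aif1 and Csf1r read 54.5 and 34 and 30 and 36, and Krt5 of surface ectoderm 49 and 65. Most markers of these lists were below both floors. These were Pecam1, Cdh5, Kdr and Tie1 of endothelium, and Hba-x, Hbb-bh1 and Alas2 of blood cells. So were Tyr, Tyrp1 and Dct of pigment cells, Ptprc and Adgre1 of macrophages, and Krt14, Krt15 and Trp63 of surface ectoderm. The part of these cells in the ratios given here was not tested. Both RNAs may come from mixtures of cells, and fewer cells of a type cannot be told apart from less RNA per cell.

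Promoters of these genes share sequence features that the choice of members did not use. RefSeq (GRCm38.p6) gives a promoter of a coding gene, 250 bases before to 50 after the start, for 67 of the 76 members and for 17492 coding genes in all. Both strands were searched for GCGCA and GCGC with any 1 base between them, which NRF1 recognises, for CCGGAAG, the core bound by ETS factors such as GABPA, and for ANATGGCGG, bound by YY1. Matches of different motifs were allowed to overlap. These 3 factors are known regulators of nuclear genes for mitochondrial proteins. The ETS core was found in 26 of 67 member promoters (38.8%) against 12.9% of all coding genes. The NRF1 letters were found in 13 (19.4%, against 7.17%) and the YY1 letters in 7 (10.4%, against 2.91%). At least 1 of the motifs was present in 39 members (58.2%, against 20.5%). A match in letters is a description of the sequence and not a measured binding site.

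The promoters of 6 members are printed from 70 bases before the start to 30 bases from it, 5′ to 3′ on the gene's own strand, with matches in capitals. Mrps12 and Mrpl21, both higher in epithelium, and Mrps23, higher in fibers, hold the ETS core just after the start (Mrps12 at chr7:28741792-28741891 on the minus strand, Mrpl21 at chr19:3282972-3283071 and Mrps23 at chr11:88204318-88204417 on the plus strand). Mrps30, higher in fibers, holds the YY1 letters (chr13:118387223-118387322, minus strand). Mrpl17 is shown for the NRF1 letters (chr7:105811058-105811157, minus strand). Mrpl42, the member with the largest ratio, holds none of the 3 motifs in the stretch shown or in the whole window (chr10:95501920-95502019, minus strand).
Mrps12: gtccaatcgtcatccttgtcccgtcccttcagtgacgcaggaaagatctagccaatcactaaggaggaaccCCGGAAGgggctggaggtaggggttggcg
Mrpl21: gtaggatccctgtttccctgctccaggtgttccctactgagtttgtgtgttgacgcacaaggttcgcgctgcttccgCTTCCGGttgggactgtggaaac
Mrps23: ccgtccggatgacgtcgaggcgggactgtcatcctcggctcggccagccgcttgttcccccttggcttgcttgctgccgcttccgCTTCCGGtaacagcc
Mrps30: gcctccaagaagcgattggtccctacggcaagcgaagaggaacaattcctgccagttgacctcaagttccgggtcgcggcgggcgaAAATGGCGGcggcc
Mrpl17: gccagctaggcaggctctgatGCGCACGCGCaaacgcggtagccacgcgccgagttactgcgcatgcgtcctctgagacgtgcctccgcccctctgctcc
Mrpl42: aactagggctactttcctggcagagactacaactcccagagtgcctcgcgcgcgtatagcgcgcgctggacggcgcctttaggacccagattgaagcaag

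Matches were found on both sides of the comparison. Among members past 2-fold with a promoter entry, at least 1 motif was held by 4 of the 8 on the fibers side and by 2 of the 6 on the epithelium side. The NRF1 letters were in none of these windows. Over all 67 members with a promoter entry, 39 held at least 1 motif (58.2%) and 13 the NRF1 letters (19.4%). The counts past 2-fold rest on few genes and were not tested.

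Most members gave a signal, and few of them a strong one. Of the 76, 52 passed at least 1 of the floors (68.4%), against 6451 of all 19057 genes (33.9%). Of the 52, 24 passed both floors, 21 passed in fibers alone and 7 in epithelium alone. All 6451 measured genes leaned the same way, with 2986 above both floors, 2307 in fibers alone and 1158 in epithelium alone. That excess on the fibers array moves with its lower floor. With 1 common floor of 44.5, 12 members passed in fibers alone and 10 in epithelium alone. Of the 5679 genes measured with that floor, 1535 passed in fibers alone and 1485 in epithelium alone. With the separate floors, the other 24 members were below both floors and have no ratio. They include Mrpl12, the factor-binding stalk protein (13 and 32), Mrpl44, which carries a ribonuclease fold (28 and 25), Mrpl58, a peptide-release protein built into the ribosome (11 and 16), and Mrps16 (23 and 27). The rest of these are Mrpl9, Mrpl14, Mrpl16, Mrpl19, Mrpl32, Mrpl34, Mrpl35, Mrpl43, Mrpl46, Mrpl47 and Mrpl55 of the large subunit, and Mrps11, Mrps14, Mrps18b, Mrps21, Mrps25, Mrps26, Mrps27, Mrps28 and Mrps35 of the small subunit.

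Members past 2-fold were found on both sides. Of 52 measured members, 9 were at least 2-fold higher in fibers (17.3%, against 15.6% of all 6451 measured genes) and 7 in epithelium (13.5%, against 19.0%). Together 16 of 52 passed 2-fold, where 34.6% of all measured genes did. These shares lie near those of all measured genes. The median log2 ratio was 0.00, as over all measured genes. Both medians fall on genes with no direction, placed at 0, which numbered 9 among members and 772 among all genes. With the common floor no gene was so placed, and the medians were 0.27 and -0.03. Among members above both floors, 5 of 24 were higher in fibers and 3 in epithelium, where all such genes gave 14.3% and 17.5%, and the median log2 ratio was 0.12 against -0.19.

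The subunits differed in their medians. The 18 measured small subunit genes had a median log2 ratio of 0.62, with 6 past 2-fold on the fibers side (33.3%) and 2 on the epithelium side (11.1%). The 34 measured large subunit genes had a median of 0.00, with 3 higher in fibers (8.82%) and 5 in epithelium (14.7%). That median falls on the 7 large subunit genes with no direction. Positive log2 ratios, bounds included, were found for 12 of 18 small and 13 of 34 large subunit genes, and for 2796 of all 6451 measured genes. Without replicates this difference cannot be tested. With the second brightest probe it turned, to a small subunit median of -0.42 over 4 genes and a large subunit median of 0.00 over 5. Under housekeeping scaling the medians were 0.00 and -0.67, and that of all measured genes was -0.88.

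**Figure D1:**
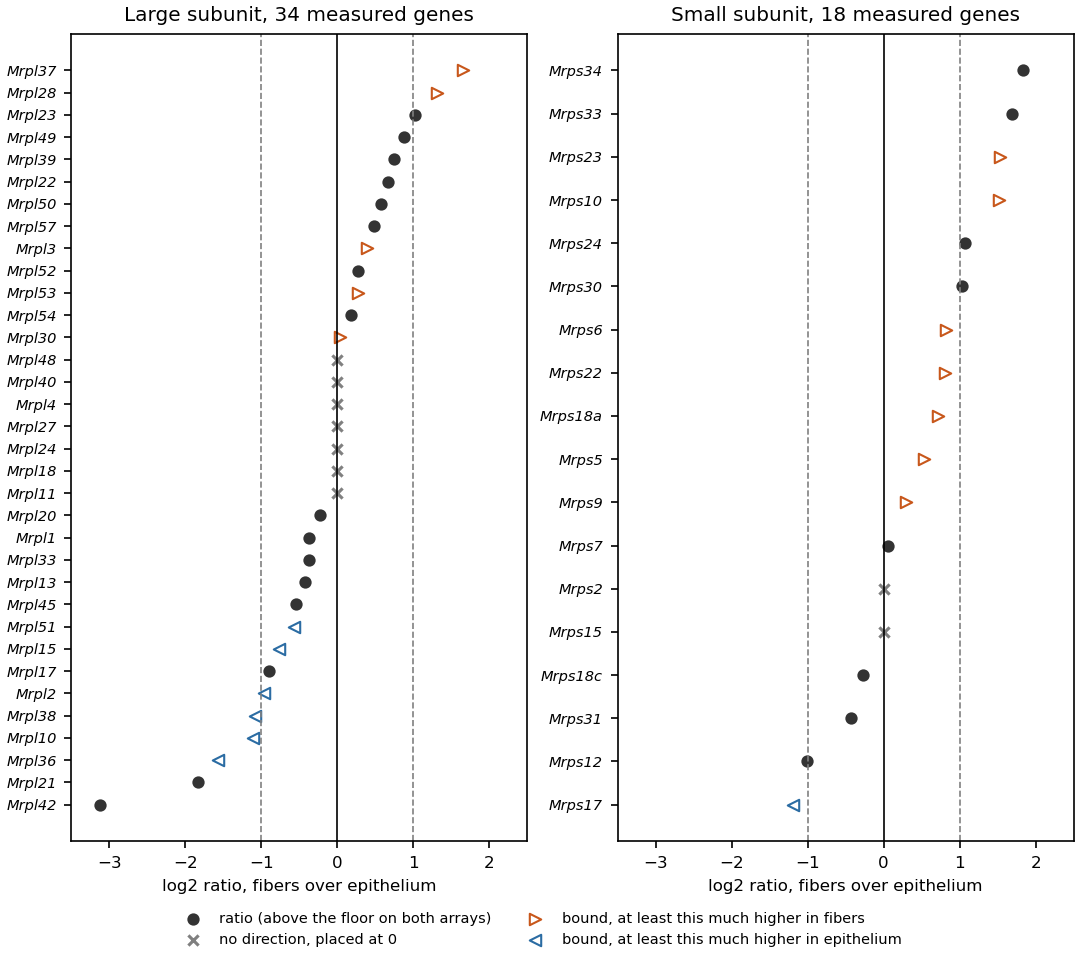
Log2 ratio of fibers over epithelium for the 34 large and 18 small subunit genes that were measured, 1 marker per gene. Filled points are ratios, open triangles are bounds, crosses are genes with no direction, and dashed lines mark 2-fold. Small subunit genes reach 2-fold in fibers 6 times and large subunit genes 3 times, and Mrpl42 lies farthest to the left at -3.13.

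How far a single ratio can be trusted was read from genes with several probes. Over 472 genes with at least 2 probes above both floors, the log2 ratios of the 2 brightest probes differed by a median of 0.51, and 1 in 10 of these genes differed by more than 1.84. Of the 52 measured members, 29 had an absolute log2 ratio or bound above 0.51 and 1, Mrpl42, was above 1.84. Of the 1580 probes for silent families, 32 passed both floors, and their log2 ratios ran from -2.31 to 2.36. All member ratios except that of Mrpl42 lie within that range, and its fibers value, 33, lies next to the floor of 32. Both spreads were read on the same 2 arrays. They leave out differences between repeat arrays, between RNA preparations and between animals.

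Of the 9 members past 2-fold towards fibers, 6 carry a small subunit name. Mrps34, a protein particular to mitochondria that is needed for a stable small subunit, read 149 in epithelium and 532.5 in fibers, 3.57-fold higher. Mrps33, also without a bacterial counterpart, read 57.5 and 184.5 (3.21-fold). Both have a probe above both floors, and Mrps33 has a second probe below both floors, at 6 and 24. Mrps24, the counterpart of a bacterial protein at the mRNA entry site, read 122 and 255.5 (2.09-fold). Mrps30, at 109.5 and 224.5 (2.05-fold), carries a small subunit name but sits in the large subunit of the assembled ribosome. Housekeeping scaling lowers every log2 ratio of genes above both floors by 1.21, so that any between 0 and 1.21 turns negative. Mrps24 and Mrps30 then stood at -0.14 and -0.17. A bound towards fibers falls no further than 0, such as that of Mrps6, from 0.82 to 0.

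Other small subunit genes were seen on the fibers array only. Mrps23, particular to mitochondria, read 18 in epithelium and 129 in fibers, at least 2.90-fold higher, but its second probe was below both floors at 18 and 10. Mrps10, a homologue of a bacterial protein in the head of the small subunit, read 2 and 127 (at least 2.85-fold). A second Mrps10 probe gave 56 and 50.5, a log2 ratio of -0.15, so these probes differ in direction. Mrps6 (5 and 78.5), Mrps22 (18 and 78) and Mrps18a (1 and 73) had bounds of at least 1.76-fold, 1.75-fold and 1.64-fold. Mrps5 (13 and 64) and Mrps9 (2 and 54.5) had smaller bounds of 1.44-fold and 1.22-fold, and Mrps2 and Mrps15 had no direction. Mrps18a, like Mrps30, sits in the large subunit. Counted by their place in the structure, the small subunit had a median of 0.41 over 16 genes and the large subunit 0.00 over 36. Over genes above both floors the order by structure was the opposite, with medians of 0.06 for 7 small and 0.18 for 17 large subunit genes.

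Other members of the small subunit lay on the epithelium side or near 0. Mrps12, whose bacterial counterpart lies at the decoding centre, read 104.5 in epithelium and 52 in fibers, 2.01-fold higher in epithelium. Its second probe, at 108.5 and 42.5, gave a log2 ratio of -1.35 against -1.01 for the first, and it was 1 of only 2 members with several probes above both floors. Mrps17, an rRNA-binding protein, read 73 and 17 (at least 2.28-fold higher in epithelium). Mrps31 read 134.5 and 99.5, and Mrps18c read 69 and 57, both within the spread between probes. Another Mrps31 probe passed in epithelium alone, at 52 and 10, a bound of -0.70. The remaining Mrps31 probes were below both floors, at -1 and 3 and at 17 and 31. Mrps7, a protein of the subunit head, read 127 and 132.5, while a second probe passed the floor in fibers alone, at 9 and 102.

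**Figure D2:**
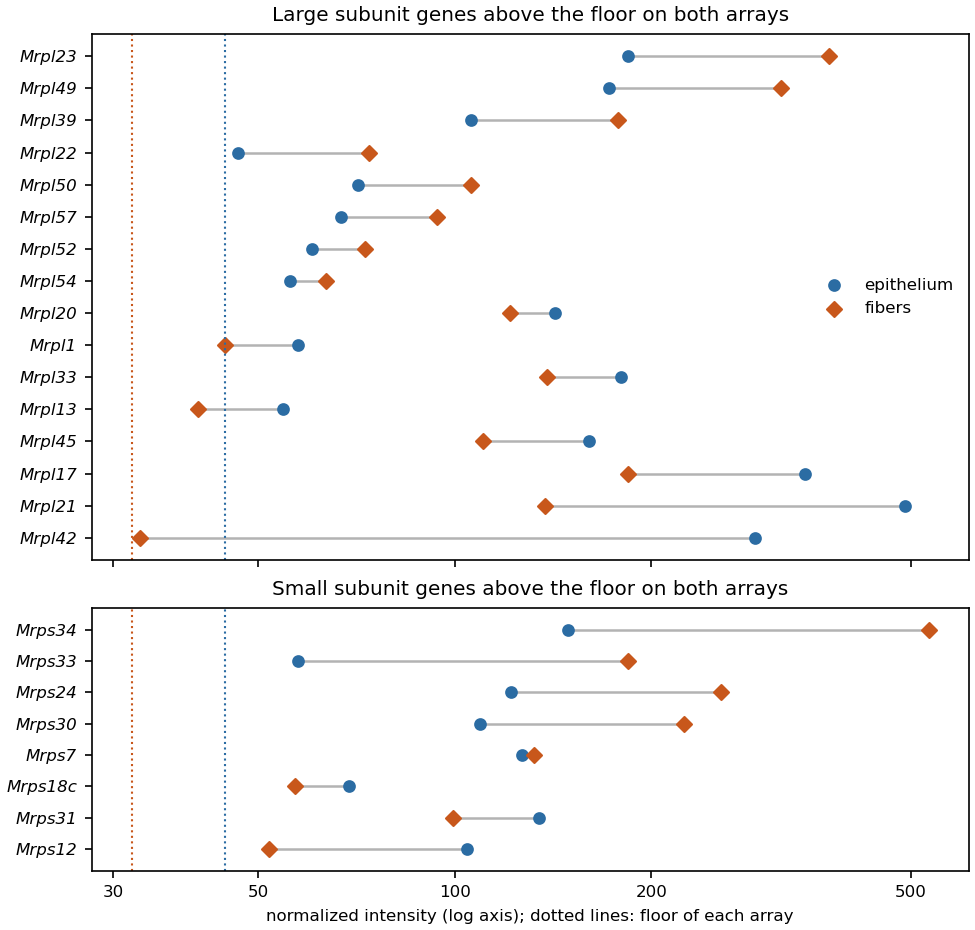
Normalized intensity in epithelium (circles) and fibers (diamonds) for the 16 large and 8 small subunit genes above the floor on both arrays, 1 row per gene on a log axis, with the floors of 44.5 and 32 dotted. Mrps34 and Mrps33 lie far to the fibers side, and the fibers value of Mrpl42 lies close to the floor.

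Of the 7 members past 2-fold towards epithelium, 5 carry a large subunit name, a share of that subunit (14.7%) below the 19.0% of all measured genes. Mrpl42, particular to mitochondria, read 288 in epithelium and 33 in fibers, 8.73-fold higher. Its fibers value was barely above the floor, and with the common floor it was a bound of -2.69. With the floor at the 99th percentile of silent probes it was a bound of -1.84. With no floor and an offset of 32 its log2 ratio was -2.30. Mrpl21, with a bacterial counterpart, read 490.2 and 137.5 (3.57-fold). That probe is annotated to a sequence other than a RefSeq transcript, and the Mrpl21 probe for the RefSeq transcript read 2 on both arrays. Mrpl17 read 344 and 184.5, just inside 2-fold at a log2 ratio of -0.90, as was the bound of Mrpl2 (62.5 and 14, -0.97), whose bacterial counterpart lies by the peptidyl transferase centre.

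A group of large subunit genes was above the epithelium floor only. Mrpl36 read 95 and 22, at least 2.97-fold higher in epithelium. Mrpl10, which anchors the factor-binding stalk, read 69 and 2 (at least 2.16-fold), and a second probe was below both floors at 25 and 29. Mrpl38, a protein of the central protuberance, read 68 and 30 (at least 2.12-fold), and its second probe was also below both floors. Mrpl15 (54.5 and 12) and Mrpl51 (47.5 and 18) had bounds under 2-fold. Of 7 Mrpl15 probes, the probe for a RefSeq transcript read -1 and 1. When the floor was made common, the bounds of Mrpl10, Mrpl38 and Mrps17 fell below 2-fold.

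A few large subunit genes were higher in fibers. Mrpl23, a protein of the peptide exit tunnel, was 2.03-fold higher, with intensities of 184.5 and 374, and its log2 ratio was -0.18 when scaled to housekeeping genes. Mrpl28 read 39.5 and 110.5 (at least 2.48-fold). Mrpl37 read 7 and 140.5 (at least 3.16-fold), with a second probe below both floors at 4 and 11. Mrpl49 (172.5 and 316), Mrpl39 (106 and 178), Mrpl22 (46.5 and 74) and Mrpl50 (71 and 106) had log2 ratios of 0.87, 0.75, 0.67 and 0.58. Under housekeeping scaling these 4 were at -0.33, -0.45, -0.53 and -0.63.

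Many large subunit genes showed little or no difference. Mrpl20 (142.5 and 121.5), Mrpl33 (180 and 138.5), Mrpl45 (160.5 and 110.5), Mrpl13 (54.5 and 40.5) and Mrpl1 (57.5 and 44.5) had log2 ratios from -0.54 to -0.23. Mrpl45 is a membrane-facing protein at the exit of the peptide tunnel. A second Mrpl33 probe went the other way, at 42.5 and 68. For Mrpl13 a second probe read 50.5 and 37, a log2 ratio of -0.45 against -0.43. Bounds towards fibers of 1.31-fold or less were given by Mrpl3 (28 and 58.5), Mrpl53 (5 and 53.5) and Mrpl30 (41.5 and 45.5). Mrpl52, Mrpl54 and Mrpl57 had log2 ratios of 0.27, 0.18 and 0.49. Mrpl4, Mrpl11, Mrpl18, Mrpl24, Mrpl27, Mrpl40 and Mrpl48 were above the fibers floor only, at 33 to 42.5, with no direction.

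**Figure D3:**
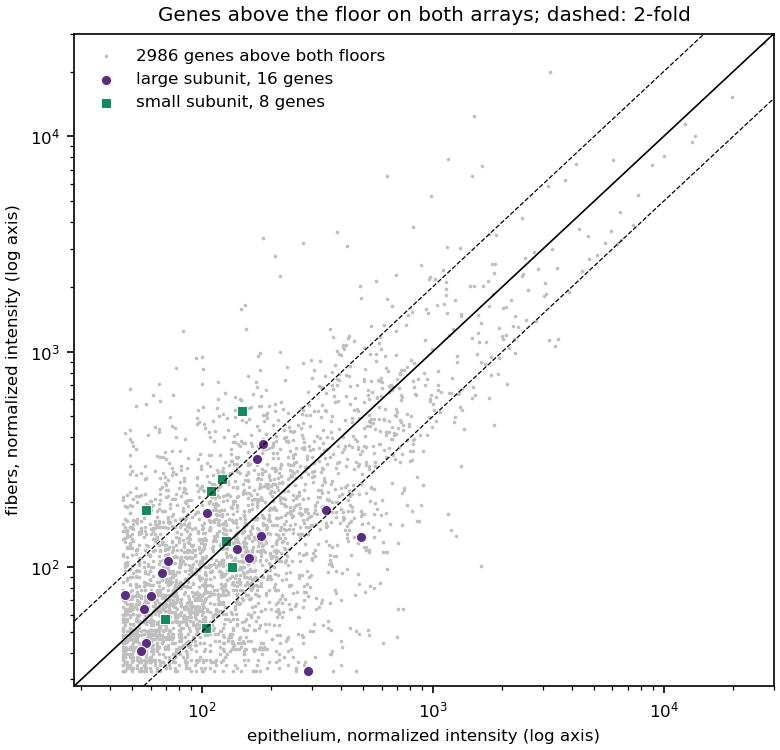
Normalized intensity in fibers against epithelium for the 2986 genes above the floor on both arrays (grey), on log axes, with 16 large subunit genes as circles and 8 small subunit genes as squares. The solid line marks equal values and dashed lines mark 2-fold. The members lie inside the cloud of all genes at low to middle intensity, 5 of 24 at 2-fold or more on the fibers side and 3 on the epithelium side.

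Members were also split by whether the protein is classed with a bacterial counterpart. Mrps18c was so classed, whereas the related Mrps18a and Mrps18b were classed as particular to mitochondria. Of 31 measured genes with a bacterial counterpart, 4 passed 2-fold towards fibers (12.9%) and 5 towards epithelium (16.1%). Their median log2 ratio was 0.00. Of 21 measured genes particular to mitochondria, 5 were higher in fibers (23.8%) and 2 in epithelium (9.52%), with a median of 0.49. The shares of all measured genes were 15.6% and 19.0%. Within the small subunit by name, the 7 mitochondria-specific genes had a median of 1.04, with 4 higher in fibers (Mrps34, Mrps33, Mrps23 and Mrps30). These 7 include Mrps30 and Mrps18a, which sit in the large subunit of the assembled ribosome. The 11 of small subunit name with a bacterial counterpart had a median of 0.06, with 2 in each direction. Within the large subunit the medians were 0.22 over 14 mitochondria-specific genes and -0.12 over 20 with a bacterial counterpart. These splits rest on few genes and were not tested.

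Mitochondrial ribosomal proteins without the family name lay close together. Chchd1, a small subunit protein, read 504 in epithelium and 584.5 in fibers, Dap3, a GTP-binding small subunit protein, 137.5 and 106, and Ptcd3, which lies by the mRNA entry, 50.5 and 49. Their log2 ratios were 0.21, -0.38 and -0.04. Gadd45gip1 was below both floors.

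Genes that act with this ribosome did not lie on one side. Of 8 measured translation factors of 16 on the array, 2 passed 2-fold towards fibers and none towards epithelium (median log2 ratio 0.55). That is 25% and 0%, against 15.6% and 19.0% of all measured genes. Counts over so few genes were not tested, here or in the lists that follow. Tufm, the elongation factor that brings charged tRNA to the ribosome, read 26 in epithelium and 198 in fibers, at least 4.45-fold higher. The release factor Mtrf1l had a bound of 2.37-fold towards fibers. Gfm2, which helps recycle the ribosome, had one of 1.76-fold. Guf1, a GTPase related to elongation factors, had a bound of -0.77.

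Of 9 measured genes for ribosome assembly and rRNA modification, of 24 on the array, 1 passed 2-fold towards fibers and 2 towards epithelium (median 0.00). That is 11.1% and 22.2%, against 15.6% and 19.0% of all measured genes. The GTPase Noa1 read 233.5 in epithelium and 10 in fibers, at least 7.30-fold higher in epithelium. Rbfa, a factor for maturing the small subunit rRNA, read 200.5 and 4 (at least 6.27-fold). Ngrn, which acts on the large subunit rRNA, read 64 and 182.5 (2.85-fold higher in fibers). Dhx30, an RNA helicase, had a bound of -0.92.

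Of 9 measured mitochondrial aminoacyl-tRNA synthetases and amidotransferase subunits, of 19 on the array, 3 passed 2-fold towards epithelium and 1 towards fibers (median -0.64). That is 33.3% and 11.1%, against 19.0% and 15.6% of all measured genes. These enzymes load tRNAs with amino acids. Iars2 read 126 in epithelium and 38 in fibers (3.32-fold), Ears2 was at least 3.23-fold and Wars2 2.11-fold higher in epithelium. Mars2 read 6 and 196, at least 4.40-fold higher in fibers.

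**Figure D4:**
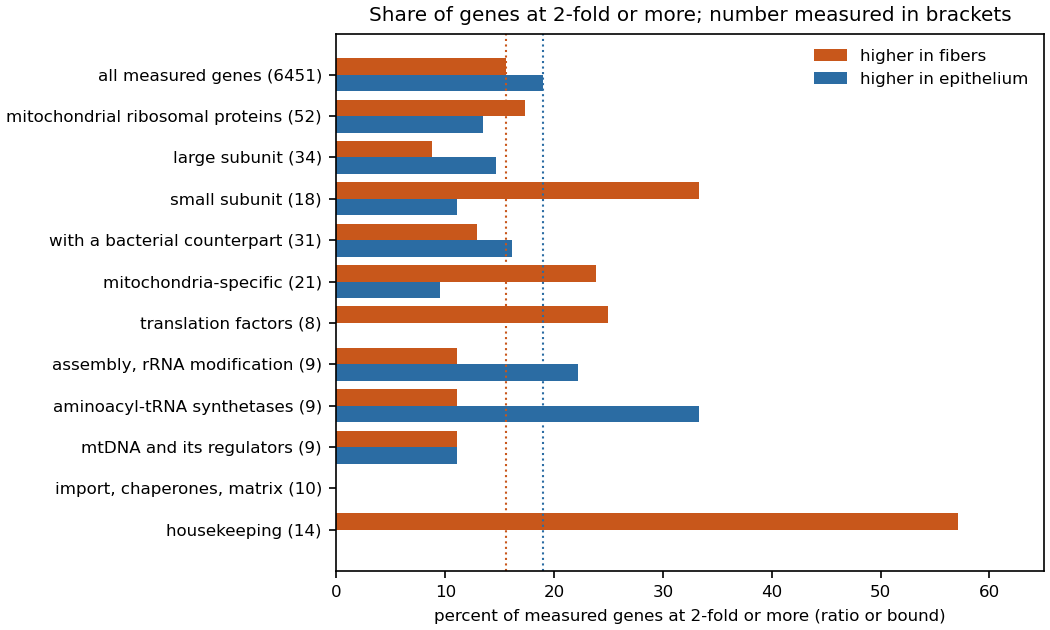
Percent of measured genes at 2-fold or more, ratio or bound, for all genes, the mitochondrial ribosomal protein genes and their subgroups, and other mitochondrial lists, with the number measured in brackets. Dotted lines are the shares of all measured genes, 15.6% in fibers and 19.0% in epithelium. The small subunit stands at 33.3% in fibers, the synthetases at 33.3% in epithelium over 9 genes, and the housekeeping list at 57.1% in fibers.

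Members often lie head to head with another gene. A coding neighbour that starts on the other strand and runs away from the member, with starts under 1000 bases apart, was present for 23 of 67 members (34.3%) and for 1481 of 17492 coding genes (8.47%). Mrpl46 and Mrps11 form such a pair with each other, with starts 42 bases apart, and both were below both floors. The start of Mrps12 lies 147 bases from that of Sars2, the mitochondrial seryl-tRNA synthetase, which was below both floors at 13 and 16. Mrpl43 faces Twnk, the mitochondrial DNA helicase gene, at 116 bases, and neither was above a floor.

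Few of these pairs allow a comparison. Both genes were measured in 4 pairs, and both had a direction in 2. Mrpl21 had a log2 ratio of -1.83 and its neighbour Ighmbp2, a helicase gene that starts 32 bases away, read 52 in epithelium and 46.5 in fibers (-0.16). Mrpl2 had a bound of -0.97 and its neighbour Klc4, a kinesin light chain gene, read 93 and 76 (-0.29). Mrpl18, at 11 and 42.5 with no direction, faces Tcp1, a chaperonin subunit gene, which read 57 and 256.5 (log2 ratio 2.17).

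The family result depends on the scaling. The 14 housekeeping genes had a median log2 ratio of 1.21 and 8 passed 2-fold towards fibers. Scaling the arrays to them moved the median of all measured genes from 0.00 to -0.88 and that of the members to -0.26, and then no member passed 2-fold towards fibers and 20 did towards epithelium, where 2.67% and 48.2% of all measured genes did. Relative to the median of all measured genes under housekeeping scaling, the members stood at 0.62, the small subunit at 0.88 and the large subunit at 0.21. Bounds towards fibers stop at 0 under this scaling, so these distances are shaped by that rule. Over genes above both floors the medians were -1.08 for members and -1.40 for all genes, against 0.12 and -0.19 without this scaling. With a loess fit, which moved the median of all measured genes to 0.14, the members split 12 to 3 and all measured genes 1290 to 906.

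**Figure D5:**
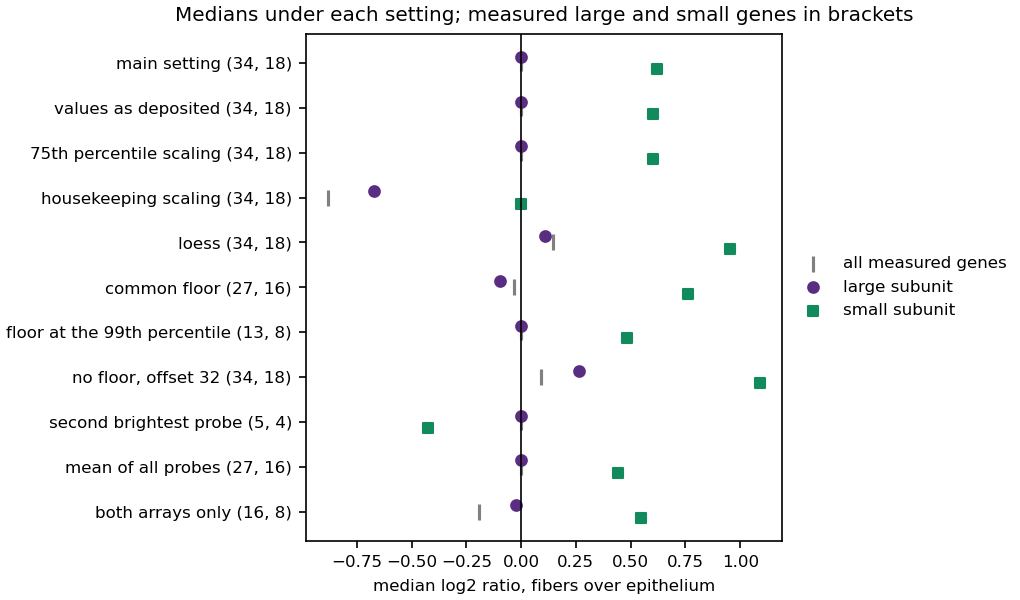
Median log2 ratio of fibers over epithelium under each processing setting for all measured genes (bars), large subunit genes (circles) and small subunit genes (squares), with the numbers of measured large and small subunit genes in brackets. The small subunit median lies above the large subunit median under every setting drawn except the second brightest probe, which rests on 5 and 4 genes.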

How the data were processed

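Biotin-labelled total RNA from each tissue was read on an Illumina array, per the labels' protocols. The values the authors deposited are linear intensity, 1 whole number for each probe of an array. Values of 0 or less made up 38.0% for epithelium and 38.7% for fibers. The background step and any scaling behind them are not stated in the labels.

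These intensities were quantile normalized, because percentiles differed by more than the 0.1 (log2) set as the limit. The largest difference, 0.58, lay at the 45th percentile (3 against 2), far below the floors, where values are small whole numbers. Probes were named through the platform annotation: 34885 had 1 gene symbol, 18 several and 10378 none. Floors came from 1580 probes for 1308 olfactory, vomeronasal and trace amine receptor and keratin-associated protein genes. Calls were made at 2-fold. Named members are those at 2-fold or more, the 5 highest and 5 lowest ratios and 5 largest bounds per direction in each subunit, those whose probes disagree and those next to 2-fold. Others are named after their values were seen. Of each other mitochondrial list up to 4 members are named by the size of their ratio. Gabpa and Yy1 are named as well because their motifs were searched. The ribosomal proteins without the family name are all named. The members and lists were chosen with earlier results of these data known. Ratios were computed in Python 3.11.15 with numpy 2.4.6 and pandas 2.3.3 and tested on simulated data. The number of arrays limits the precision. In all, 12 alternatives were planned.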

Additional observations from a re-analysis of the deposited data

How the results depend on the processing

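The 9 members past 2-fold towards fibers numbered 0 with housekeeping scaling, 4 with the floor at the 99th percentile of silent probes, 14 with no floor and an offset of 32, 1 with the second brightest probe, 5 over genes above both floors only, and 15 at 1.5-fold. The 7 higher in epithelium numbered 20, 2, 6, 1, 3 and 10 under these settings, 3 with a loess fit and 4 with a common floor. All 16 of these calls were kept with the values as deposited and with 75th percentile scaling. The shares of all measured genes changed with the setting too. Towards fibers they were 11.04% with the 99th percentile floor, 21.8% with no floor, 13.6% with the second brightest probe and 24.6% at 1.5-fold. Towards epithelium they were 14.9%, 19.3%, 15.9% and 31.1%. The median of all members was 0.51 with no floor, and that of all measured genes 0.09. The large subunit median was -0.67 and the small subunit median 0.00 with housekeeping scaling, and the small subunit median was -0.42 with the second brightest probe. Of members past 2-fold, Mrpl23 (-0.18), Mrps24 (-0.14) and Mrps30 (-0.17) changed sign with housekeeping scaling, and Mrps10 (-0.15) with the second brightest probe. Housekeeping scaling lowers all ratios of genes above both floors by 1.21. Below 2-fold, Mrpl22, Mrpl39, Mrpl49, Mrpl50, Mrpl52, Mrpl54, Mrpl57 and Mrps7 changed sign with housekeeping scaling too (-1.14 to -0.33). Mrps18c did so with loess (0.03) and Mrpl33 with the second brightest probe (0.61). Apart from the 4 changes of sign past 2-fold, 226 values of named members moved by no more than the 0.51 between probes of a gene. Another 48 moved by more, and of the other lists 52 and 10. These counts include the sign changes below 2-fold of members named by rule. Fewer genes are measured with the strict floor and with the second brightest probe, among them 21 and 9 members. For the other settings the cause was not tested. No paired analysis was possible because each group has 1 array, and no replicate could be left out.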

Other observations

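Genes of mitochondrial DNA and its transcription were split between the tissues. Of 9 measured of 19 on the array, 1 passed 2-fold towards fibers and 1 towards epithelium (median log2 ratio -0.06). That is 11.1% each way, against 15.6% and 19.0% of all measured genes. Nrf1, a nuclear regulator of mitochondrial genes, read 101 in epithelium and 29 in fibers, at least 3.16-fold higher in epithelium. The other factors named for the promoter motifs, Gabpa (1 and 6) and Yy1 (22 and 11), were below both floors. Tfb2m, a mitochondrial transcription factor, read 103.5 and 52, a log2 ratio of -0.99. Top1mt, the mitochondrial topoisomerase, read -4 and 112.5, a bound of 2.53-fold towards fibers. Mterf1a had a log2 ratio of -0.66.

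None of 10 measured genes for mitochondrial import, chaperones and matrix differed by 2-fold or more, where 34.6% of all measured genes did. Hspd1, a matrix chaperonin, read 242 in epithelium and 180 in fibers (log2 ratio -0.43). Hspa9, the matrix chaperone, read 88 and 160.5 (0.87), the outer membrane channel gene Vdac2 had a log2 ratio of -0.85 and the protease subunit Clpp 0.65. The list median was -0.13, against 0.00 for the ribosomal protein genes.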
